A study of Homo sapiens with 2 samples.

Results

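The 399 domains that the domain lists placed on chromosome 3 are described here, taken as every row of either list with that chromosome, 231 of 2524 in the PA+OA list and 168 of 2679 in the mock list (399 of 5203 in all). Hi-C, a method that ligates and sequences pairs of DNA fragments lying near each other in the nucleus, was applied to HepG2, a widely used human line from a liver tumour, kept in DMEM with 10% serum. PA+OA cells had received, for 48 h, oleic acid (240 µM, with 1 double bond) and palmitic acid (120 µM, saturated) in medium holding 1% BSA free of fatty acids. Mock cells had received DMSO at 1 part in 1000 for the same time, and the labels leave unclear whether their medium also held BSA. Each group was 1 library of 1 cell line, so there were no replicates and no test of the treatment, and the depth of either library is unknown. Chromosome 3 was chosen by its number of domains, which is higher in the PA+OA list. The numbers and lengths of domains and the numbers of boundaries below are therefore a description. The lists hold no expression values, so the cell type could not be checked by markers.

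Chromosomes fold into topologically associating domains, stretches of DNA whose loci touch each other more often than they touch loci outside. Cohesin extrudes loops of chromatin until it meets CTCF bound in a facing orientation, and many domain edges hold CTCF sites or active promoters. A boundary between an enhancer and a gene can lower their contact, which is why the genes on either side of a boundary are named below. In hepatocytes, palmitic and oleic acid are esterified into triglycerides and stored in lipid droplets or oxidised in mitochondria and peroxisomes. Chromosome 3 carries genes of that pathway such as PPARG, EHHADH and CIDEC, a run of genes for plasma proteins on the long arm, and several tumour suppressors on the short arm.

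Domain starts and ends were taken as boundaries. All positions in the lists were multiples of 40 kb, taken as 1 bin, and edges no more than 1 bin apart were merged. A boundary was called added if it stood in the PA+OA list with no mock boundary within 1 bin, lost if it stood in the mock list with no PA+OA boundary within 1 bin, and shared otherwise. Chromosome 3 had 84 added and 25 lost boundaries. Because a boundary is known to 40 kb at best, distances finer than a bin, given below for genes and promoters, place the gene against the deposited position and not against a measured edge.

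The promoters of 5 genes near added boundaries are shown because these genes recur below. They were chosen by hand after their positions were seen and are not the 5 nearest, since ARHGEF3 and SATB1, for example, have starts 0.732 and 1.26 kb from an added boundary. Each is a window of 250 bases before to 50 after a transcription start in RefSeq (GRCh38.p14), printed 5′ to 3′ along the gene. HDAC11, a histone deacetylase, has a start 0.306 kb after the added boundary at 13480000, and its window is chr3:13480056-13480355 on the plus strand. SEC13, a coat protein of vesicles leaving the endoplasmic reticulum, starts 1.04 kb after the boundary at 10320000 (chr3:10320992-10321291, minus strand). WNT5A, a secreted Wnt ligand, has a start 1.40 kb after the boundary at 55480000 (chr3:55481349-55481648, minus strand). KNG1, the kininogen that releases bradykinin, starts 2.64 kb before the boundary at 186720000 (chr3:186717109-186717408, plus strand). SOX2, a pluripotency transcription factor, has a start 8.07 kb before the boundary at 181720000 (chr3:181711675-181711974, plus strand).
HDAC11: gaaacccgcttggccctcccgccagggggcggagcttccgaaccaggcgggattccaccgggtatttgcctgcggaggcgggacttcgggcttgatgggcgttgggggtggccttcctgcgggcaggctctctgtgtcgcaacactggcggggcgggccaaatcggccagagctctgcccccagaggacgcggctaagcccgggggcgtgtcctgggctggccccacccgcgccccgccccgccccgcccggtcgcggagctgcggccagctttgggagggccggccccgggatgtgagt
SEC13: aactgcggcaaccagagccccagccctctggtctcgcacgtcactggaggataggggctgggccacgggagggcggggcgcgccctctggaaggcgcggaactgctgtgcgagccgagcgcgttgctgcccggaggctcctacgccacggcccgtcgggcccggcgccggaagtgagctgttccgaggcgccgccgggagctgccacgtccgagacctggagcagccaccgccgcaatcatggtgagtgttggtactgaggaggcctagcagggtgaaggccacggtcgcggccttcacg
WNT5A: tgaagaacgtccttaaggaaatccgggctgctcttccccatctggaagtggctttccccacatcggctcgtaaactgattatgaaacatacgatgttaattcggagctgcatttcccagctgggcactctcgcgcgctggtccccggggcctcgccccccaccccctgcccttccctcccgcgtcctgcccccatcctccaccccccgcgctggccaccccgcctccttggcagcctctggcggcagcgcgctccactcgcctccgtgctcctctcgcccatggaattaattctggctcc
KNG1: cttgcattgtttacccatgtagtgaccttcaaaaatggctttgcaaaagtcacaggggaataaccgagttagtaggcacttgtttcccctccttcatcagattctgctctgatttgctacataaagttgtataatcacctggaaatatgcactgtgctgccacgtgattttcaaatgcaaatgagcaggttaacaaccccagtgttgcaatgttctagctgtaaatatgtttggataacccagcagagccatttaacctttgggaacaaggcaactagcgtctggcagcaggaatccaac
SOX2: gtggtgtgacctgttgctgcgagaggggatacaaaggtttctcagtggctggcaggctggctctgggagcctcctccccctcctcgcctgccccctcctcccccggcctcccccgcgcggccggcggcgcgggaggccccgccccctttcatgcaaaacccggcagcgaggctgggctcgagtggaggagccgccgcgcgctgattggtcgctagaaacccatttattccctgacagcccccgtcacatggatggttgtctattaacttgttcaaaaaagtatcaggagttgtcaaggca
GC content was 73.7% in the HDAC11 window and 71% in the SEC13 window. It was 63.7% for WNT5A, 63.3% for SOX2 and 43% for KNG1. CG dinucleotides numbered 30 in HDAC11, 33 in SEC13, 22 in WNT5A, 20 in SOX2 and 3 in KNG1. Low values were not particular to KNG1, as the window of ZBTB38, 4.19 kb from an added boundary, had a GC content of 42.7% and 1 CG.

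The core letters of the CTCF motif (CCA, 2 free bases, AG, 2 free bases, GGC) were searched on both strands in all promoter windows of the same length. They stood in 2 of 116 promoters within 40 kb of an added boundary (1.72%, Wilson 95% interval 0.474 to 6.07). None of 46 promoters within 40 kb of a lost boundary held them (upper limit 7.71%), and 3 of 218 within 40 kb of a shared boundary did (1.38%). Across chromosome 3 they stood in 37 of 2143 promoters (1.73%), and across all chromosomes in 843 of 34943 (2.41%). The shares near added and shared boundaries thus lay within counting error of the chromosome. The 2 promoters near added boundaries belong to PRSS50, a serine protease of the testis, 37.9 kb after the boundary at 46680000 (chr3:46717820-46718119, minus strand), and to ALG1L2, 38.2 kb before the boundary at 130120000 (chr3:130081581-130081880, plus strand). Capitals mark the matched letters, which are a description of the sequence and not a measured CTCF site.
PRSS50: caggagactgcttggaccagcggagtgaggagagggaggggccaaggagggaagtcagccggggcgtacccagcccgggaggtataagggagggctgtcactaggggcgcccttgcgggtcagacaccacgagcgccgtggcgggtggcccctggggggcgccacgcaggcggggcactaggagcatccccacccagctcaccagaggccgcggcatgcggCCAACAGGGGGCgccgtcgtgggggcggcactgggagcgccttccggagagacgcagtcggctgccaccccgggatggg
ALG1L2: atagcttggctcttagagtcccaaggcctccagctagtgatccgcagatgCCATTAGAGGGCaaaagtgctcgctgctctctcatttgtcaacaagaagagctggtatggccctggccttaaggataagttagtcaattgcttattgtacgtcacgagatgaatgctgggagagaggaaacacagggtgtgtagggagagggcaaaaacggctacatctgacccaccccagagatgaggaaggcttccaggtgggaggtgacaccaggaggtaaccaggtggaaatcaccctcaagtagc
Distal sequence in the boundary bins was not analysed here.

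PA+OA domains of chromosome 3 were shorter than mock domains, with means of 856 and 1177 kb. Both lists run without gaps over nearly the same length (197800 and 197680 kb). The larger number of PA+OA domains, which picked the chromosome, therefore fixes the order of the means. The median length was 560 kb (quartiles 320 and 960 kb) in the PA+OA list, against 700 kb (quartiles 440 and 1440 kb) in the mock list. Domains of 200 to 960 kb made up 152 of 231 in the PA+OA list (65.8%, 59.5 to 71.6), against 95 of 168 in the mock list (56.5%, 49 to 63.8). Those of 1000 to 2960 kb made up 43 in the PA+OA list (18.6%, 14.1 to 24.1), against 52 in the mock list (31%, 24.5 to 38.3). The shortest class, 40 to 160 kb, held 21 PA+OA domains and 6 mock domains. Domains of 3000 kb or more numbered 11 in the PA+OA list and 12 in the mock list, and covered 23.6% of the PA+OA length and 28.9% of the mock length. Domains with equal start and end, which have no length, numbered 4 in the PA+OA list and 3 in the mock list. All intervals on shares are Wilson 95% intervals and cover counting error only.

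**Figure D1:**
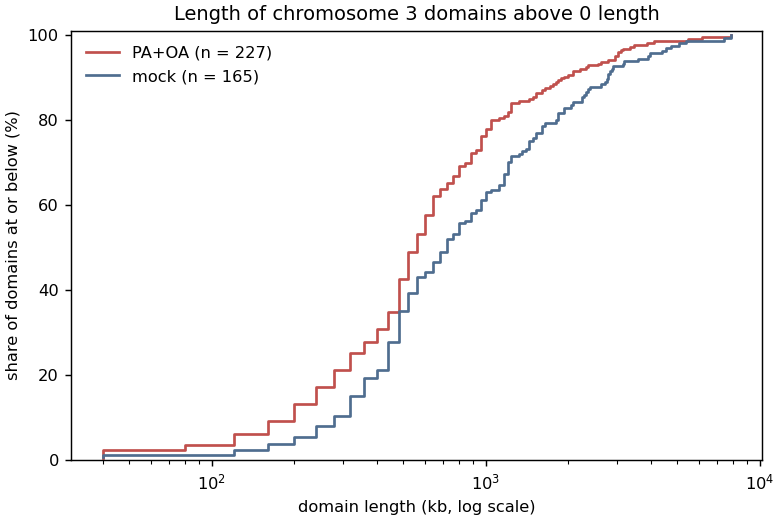
Cumulative share of chromosome 3 domains (vertical axis, %) at or below each length (horizontal axis, kb, log scale) for PA+OA and mock, leaving out domains without length. The PA+OA curve lies left of the mock curve over most of its course, with medians over all domains of 560 kb in PA+OA and 700 kb in mock, and both curves end at the same longest domain of 7840 kb.

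Some domains had the same coordinates in both lists. They numbered 70, which is 30.3% of the PA+OA domains and 41.7% of the mock domains, and together they covered 54.9 Mb. The longest domain of either list was among them, chr3:19880001-27720000 (7840 kb), which holds 20 protein-coding genes. THRB, RARB and NR1D2 lie in it, coding for a thyroid hormone receptor, a retinoic acid receptor and the circadian repressor REV-ERB beta. No boundary was added or lost between 20 and 30 Mb.

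Of the 223 PA+OA boundaries of chromosome 3, 84 were added (37.7%, 31.6 to 44.2), against 25% over all chromosomes. Of the 164 mock boundaries, 25 were lost (15.2%, 10.5 to 21.5), against 28.7% over all chromosomes. These shares come from the same 2 lists that picked the chromosome and carry no test. The remaining 139 mock boundaries (84.8%) were shared, 122 of them at the same position and 17 at 1 bin. Added boundaries came to 4.25 per 10 Mb on chromosome 3, and on the other 22 chromosomes to between 0 on chromosome 13 and 3.57 on chromosome 16, with a median of 1.64. Lost boundaries came to 1.26 per 10 Mb on chromosome 3, and on the others to between 0.515 on chromosome 19 and 6.6 on chromosome 22, with a median of 2.51. Added minus lost was 59 on chromosome 3, and between -38 on chromosome 18 and 7 on chromosome 6 elsewhere. Chromosome X had a larger share of added boundaries (42.3%).

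**Figure D2:**
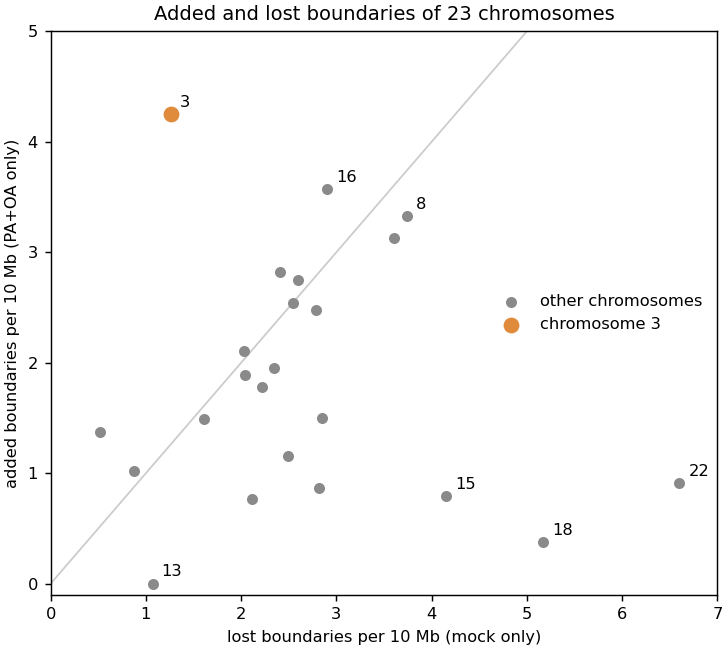
Added boundaries per 10 Mb (PA+OA only, vertical axis) against lost boundaries per 10 Mb (mock only, horizontal axis), 1 point per chromosome, with a grey line where both are equal. Chromosome 3 stands at 4.25 added and 1.26 lost, above the line and above every other chromosome on the vertical axis.

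Both arms took part. The short arm, up to the middle of the widest stretch without a protein-coding gene, had 102 PA+OA and 76 mock boundaries, of which 37 were added (36.3%) and 11 lost (14.5%). The long arm had 121 PA+OA and 88 mock boundaries, of which 47 were added (38.8%) and 14 lost (15.9%). That gene-free stretch, chr3:89482135-93873050 (4.39 Mb), lies between EPHA3, an ephrin receptor, and PROS1, the anticoagulant protein S. In windows of 10 Mb, added outnumbered lost boundaries in 18 of 20. The exceptions were the window from 20 Mb, with none of either, and the window from 80 Mb, with 1 added and 2 lost.

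Gains were largest from 50 to 60 Mb, with 22 PA+OA and 13 mock boundaries, 12 added and 3 lost. The added ones stand beside BAP1, a deubiquitinase and tumour suppressor, NEK4, SELENOK, WNT5A, ERC2, IL17RD and FHIT, among others. From 90 to 100 Mb there were 13 PA+OA and 7 mock boundaries, 8 added and 2 lost. Of these added boundaries, 3 fell in the gene-free stretch, which was taken as lying around the centromere and where read mapping was not checked. The share of added boundaries on the chromosome was 37.3% without that stretch. The other added boundaries of this window stand beside PROS1, EPHA6, the OR5 olfactory receptors, DCBLD2 and COL8A1. From 180 to 190 Mb there were 15 PA+OA and 9 mock boundaries, 6 added and 0 lost, beside DNAJC19, SOX2, ETV5, KNG1 and TPRG1.

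**Figure D3:**
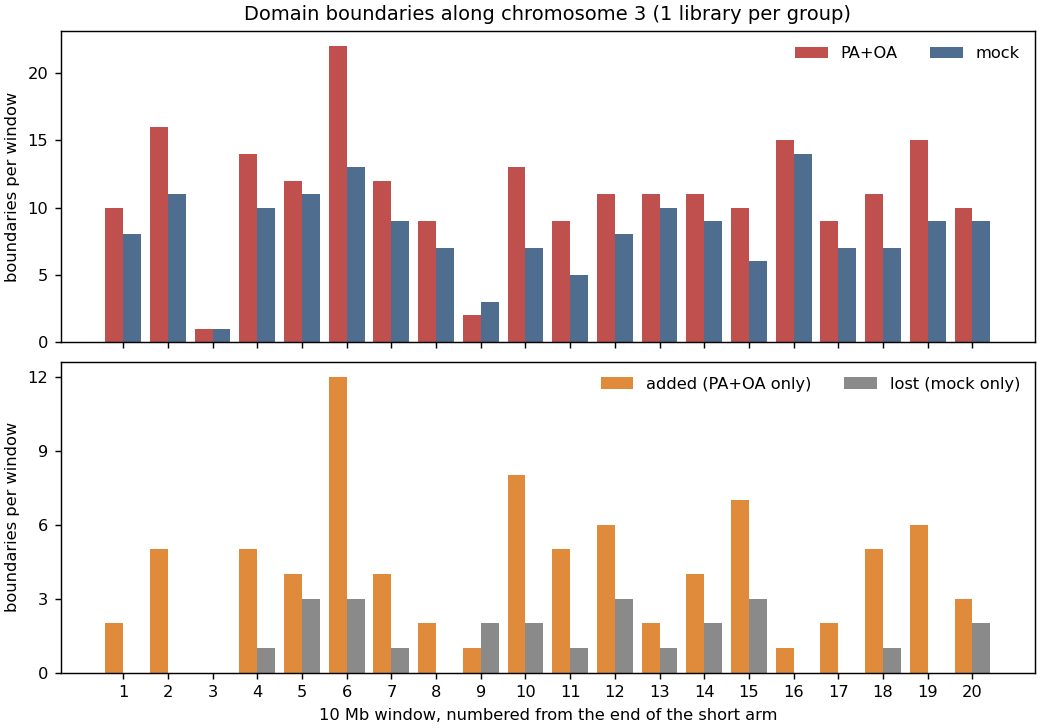
Upper panel, boundaries per 10 Mb window of chromosome 3 in PA+OA (left bar) and mock (right bar); lower panel, added (left bar) and lost (right bar) boundaries per window. Windows are numbered from the end of the short arm; the sixth window has 22 PA+OA and 13 mock boundaries, and the ninth is the only one in which lost boundaries outnumber added ones.

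Most added boundaries were not small shifts of a mock boundary. Their distance to the nearest mock boundary had a median of 480 kb and ran from 80 to 3680 kb. Only 22 of 84 (26.2%) lay 2 to 5 bins away, 42 (50%) lay 6 to 20 bins away and 20 (23.8%) lay farther. At the edge of the definition, 3 added boundaries were 80 kb from a mock boundary, among them those at 149280000 beyond CP and at 186720000 in KNG1, while 17 boundaries at 40 kb counted as shared. Lost boundaries had a median distance of 320 kb (80 to 1480 kb), and 9 of 25 had an added boundary within 5 bins.

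Farthest from any mock boundary stood 118840000 and 119480000, at 3680 and 3040 kb. The first lies between LSAMP, a limbic adhesion molecule, and IGSF11, and the second in POGLUT1, an O-glucosyltransferase of Notch. Next came 116760000, at 1600 kb and also between LSAMP and IGSF11, followed by 56160000 in ERC2 and 173360000 between SPATA16 and NLGN1, both at 1440 kb. Farthest among the lost boundaries were 110160000, between DPPA4 and NECTIN3, and 135560000, between EPHB1 and PPP2R3A, both 1480 kb from any PA+OA boundary. The others were 148240000, between ZIC1 and AGTR1 (1040 kb), 138040000, between CLDN18 and DZIP1L (1000 kb), and 191440000, between CCDC50 and PYDC2 (1000 kb).

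Added boundaries stood about as close to gene starts as the boundaries found in both lists did, a property that the choice of chromosome did not use. A protein-coding transcription start lay within 40 kb of 44 of 84 added boundaries (52.4%, 41.8 to 62.7), of 75 of 139 shared boundaries (54%, 45.7 to 62) and of 10 of 25 lost boundaries (40%, 23.4 to 59.3). Over all 4941 bin edges of the chromosome the share was 29.7% (28.4 to 31), below the intervals of the added and shared boundaries and within that of the lost ones. The median distance to such a start was 37.4 kb for added, 33.8 kb for shared and 76.7 kb for lost boundaries, against 102 kb for all bin edges. Gene density around them was close to that of the chromosome, with a median of 5 protein-coding genes within 500 kb of an added boundary, 6 for shared, 4 for lost and 4 for all bin edges. Promoters within 40 kb of added boundaries had a median GC content of 61.8%, against 62.3% near shared boundaries and 56.7% over chromosome 3.

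Of the 84 added boundaries, 83 fell inside a mock domain, and the other, at 197800000, was the end of the PA+OA list, which runs 120 kb past the mock list. They divided 56 of 168 mock domains (33.3%, 26.6 to 40.8), against 17.0% over all chromosomes. These domains had a median length of 1440 kb and held 53.1% of the length of the mock list. There were 39 with 1 added boundary, 11 with 2, 3 with 3, 2 with 4 and 1 with 5, so that 17 domains took 44 of the 83. The boundary stood at a median of 30% of the domain's length from the nearer edge, and 48 of 83 (57.8%, 47.1 to 67.9) stood deeper than 25%. Boundaries placed at random along a domain would have a median of 25%, with equal numbers deeper and shallower, which lies within that interval. The rule that an added boundary lies over 1 bin from a mock boundary raises both values. A preference for the middle of domains was not tested.

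Most of the divided mock domains were long. Among mock domains over 1 Mb, 41 of 61 on chromosome 3 had an added boundary inside (67.2%, 54.7 to 77.7), and 247 of 799 on the other chromosomes (30.9%, 27.8 to 34.2). Up to 1 Mb the numbers were 15 of 104 on chromosome 3 (14.4%, 8.94 to 22.4) and 152 of 1579 elsewhere (9.63%, 8.27 to 11.2). Per 10 Mb of mock domain, added boundaries came to 3.96 in domains of 40 to 480 kb, 2.72 from 520 to 1000 kb, 5.75 from 1040 to 2000 kb and 4 in longer ones. Per unit length, then, the longest class was not the one with the most added boundaries.

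**Figure D4:**
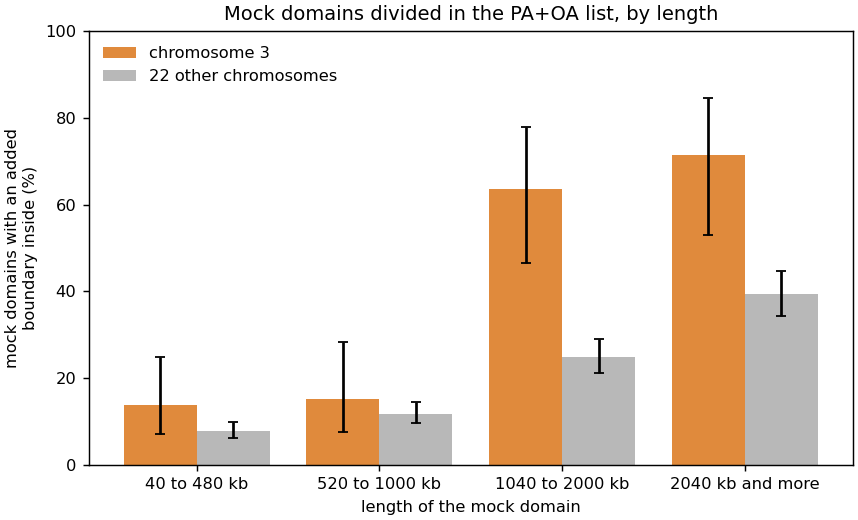
Share of mock domains with an added boundary inside (vertical axis, %) by length of the mock domain, for chromosome 3 (left bar) and the 22 other chromosomes (right bar), with Wilson 95% intervals that cover counting error only. On chromosome 3 the share is 13.8%, 15.2%, 63.6% and 71.4% from the shortest to the longest class, and on the others 7.86%, 11.8%, 24.9% and 39.4%.

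In 32 of these mock domains both outer edges were shared, so the PA+OA list cut the same stretch into smaller domains (19%, 13.8 to 25.7, against 6.68% over all chromosomes). Their pieces numbered 80, with a median of 560 kb (80 to 4120 kb), against a median of 1840 kb (440 to 5080 kb) for the 32 mock domains before division. Of the 80 pieces, 12 held no protein-coding gene. A further 89 mock domains (53%, against 47.9% over all chromosomes) kept both edges with nothing added inside, and had a median length of 520 kb. The reverse was less common, with 23 of 231 PA+OA domains over a lost boundary (9.96%, 6.73 to 14.5, against 19.9% over all chromosomes). Only 4 of those joined mock domains whose outer edges were shared (1.73%, against 8.44%).

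The PA+OA list placed 5 added boundaries, at 59280000, 59520000, 59920000, 60560000 and 60800000, in 1 mock domain, the most for any domain. That mock domain, chr3:58320001-61080000 (2760 kb), carries the fragile-site gene FHIT, a diadenosine triphosphate hydrolase lost in many carcinomas. FHIT is 1504 kb long (chr3:59747277-61251452), and the last 3 of the PA+OA boundaries lie inside it. In the mock list a single boundary, at 61080000, crossed FHIT, and that one was lost. PXK, PDHB, KCTD6, ACOX2, FAM107A, FAM3D and CFAP20DC stayed together in a PA+OA domain of 960 kb. Among these, ACOX2 is the peroxisomal oxidase of branched acyl-CoA and bile acid intermediates, and PDHB a subunit of pyruvate dehydrogenase.

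Next came 4 added boundaries around ATR, the checkpoint kinase of stalled replication forks. The boundary at 141920000 lies in ATP1B3, a subunit of the sodium pump, and the one at 142000000 in TFDP2, the partner of E2F factors. ATR itself holds the boundary at 142520000, and U2SURP, a splicing factor, the one at 143040000. TFDP2, GK5, XRN1 and ATR, placed by the middle of each gene, shared a PA+OA domain of 520 kb, and PLS1, TRPC1, PCOLCE2, PAQR9 and U2SURP shared the next, also of 520 kb. CHST2 and SLC9A9 lay in the domain after that. In the mock list a single domain of 2400 kb, chr3:141440001-143840000, held all 15 genes of the stretch.

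WNT5A stood alone in a PA+OA domain of 120 kb. CACNA2D3 and LRTM1 lay in a domain of 1040 kb before it, and ERC2, a scaffold of presynaptic active zones, in one of 560 kb after it. The boundary at 55480000 crosses WNT5A, and those at 55600000 and 56160000 cross ERC2. CCDC66, TASOR, ARHGEF3 and SPATA12 shared the following 920 kb, up to a boundary at 57080000. IL17RD, HESX1, APPL1, ASB14, DNAH12 and ARF4 shared the last 520 kb, with APPL1 known as an adaptor of the adiponectin receptors. These 5 PA+OA domains stood in place of 1 mock domain of 3160 kb with 14 genes, chr3:54440001-57600000.

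NR1I2, the xenobiotic receptor PXR of hepatocytes, lay with 32 other genes in a PA+OA domain of 3040 kb (chr3:119520001-122560000), against a mock domain of 7400 kb with 43 genes (chr3:115160001-122560000), the second longest of its list. GSK3B, the kinase that inhibits glycogen synthase, HGD of tyrosine breakdown, the costimulatory ligands CD80 and CD86 and the calcium receptor CASR lay beside NR1I2 in both lists. The added boundaries were at 116760000, 118840000 and 119480000. GAP43 and LSAMP lay before the first of them, and the 2080 kb after it held no protein-coding gene.

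Olfactory receptor genes of the OR5 family were parted by an added boundary at 98200000. OR5AC2, OR5H1, OR5H14 and OR5H15 lay in a PA+OA domain of 160 kb. OR5H6, OR5H2, OR5K1, OR5K2, OR5K3 and OR5K4 lay in the next, of 600 kb, with CPOX, an enzyme of haem synthesis, and ST3GAL6. Further boundaries at 98800000 and 99800000 set DCBLD2 and the collagen gene COL8A1 in a domain of 1000 kb, and FILIP1L, CMSS1 and TBC1D23 in one of 520 kb. In the mock list all 10 listed receptor genes and the 9 other genes lay in 1 domain of 2280 kb, chr3:98040001-100320000.

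SOX2 stood alone in a PA+OA domain of 520 kb, against a mock domain of 2880 kb, chr3:179360001-182240000, shared with 11 other genes. Its added boundaries were at 181000000, 181200000 and 181720000. The other 11 genes, which include MFN1 of mitochondrial fusion, ACTL6A of the BAF remodelling complex and DNAJC19 of the mitochondrial import motor, lay in a PA+OA domain of 1640 kb that ends 13.2 kb after the middle of DNAJC19.

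Added boundaries also fell at 100480000 and at 100720000, the second inside TFG, which acts in export from the endoplasmic reticulum. NIT2, LNP1 and the mitochondrial import receptor TOMM70 lay in a PA+OA domain of 160 kb, TMEM45A and ADGRG7 in one of 240 kb, and 12 genes in one of 1520 kb, against a single mock domain of 1920 kb (chr3:100320001-102240000). Farther along the long arm, the cuts at 170040000 and 170160000 put 7 genes including SEC62, a translocation factor of the endoplasmic reticulum, in 280 kb. GPR160 and the polycomb protein PHC3 lay in the next 120 kb. SLC2A2, the glucose transporter GLUT2 of hepatocytes, lay in the remaining 1440 kb with PRKCI, SKIL, CLDN11 and EIF5A2. All 17 genes shared a mock domain of 1840 kb (chr3:169760001-171600000).

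Other cleanly divided domains with many genes were cut once. The boundary at 16280000 in OXNAD1 left 17 genes in a PA+OA domain of 1760 kb, with the nuclear receptor NR2C2, the biotinidase BTD and HACL1, a lyase of peroxisomal alpha-oxidation, and left OXNAD1 and RFTN1 in 280 kb, against a mock domain of 2040 kb with 19 genes (chr3:14520001-16560000). The boundary at 114120000 put the dopamine receptor DRD3, ZNF80 and the T cell receptor TIGIT in 240 kb, apart from 12 genes, against a mock domain of 1200 kb (chr3:113160001-114360000). The boundary at 123280000 parted 8 genes, among them PDIA5 and SEC22A of the secretory pathway, from ADCY5, HACD2, MYLK and CCDC14, all within the mock domain chr3:122560001-124000000 (1440 kb).

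**Figure D5:**
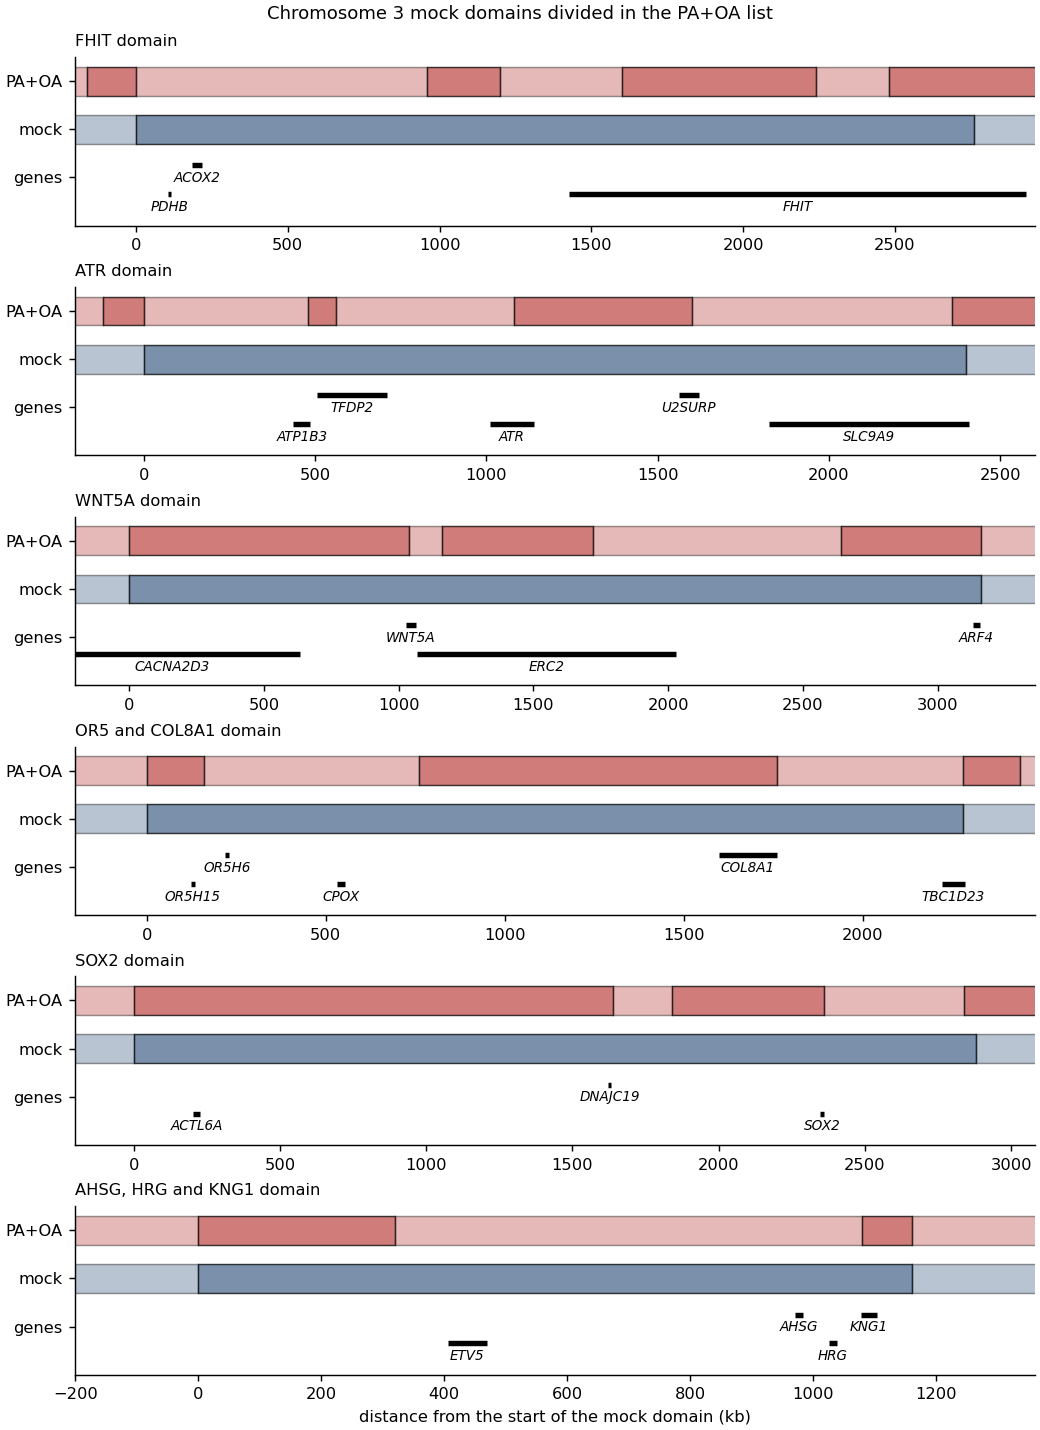
Domains of the PA+OA list (upper track) and the mock list (lower track) over 6 mock domains of chromosome 3, with selected genes as black bars, against distance from the start of the mock domain (kb). Shades alternate to show neighbouring domains; the FHIT domain holds 5 added boundaries, the ATR and WNT5A domains 4 each, the OR5 and SOX2 domains 3 each, and KNG1 lies in a PA+OA domain of 80 kb; genes under 12 kb are drawn at 12 kb.

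Where the PA+OA list ran over a lost boundary, the stretches with the most genes lay in the gene-rich part of the short arm. The domain chr3:49680001-50360000 (680 kb, 32 genes) spanned the lost boundary at 50240000 in GNAI2, which in the mock list parted 18 genes from MST1 to SLC38A3 from 14 genes that include the tumour suppressors RASSF1, TUSC2 and NPRL2 and the hyaluronidases HYAL1, HYAL2 and HYAL3. Also on the short arm, chr3:47800001-48720000 (920 kb, 23 genes) spanned 48280000, between ZNF589 and NME6, and chr3:49000001-49520000 (520 kb, 21 genes) spanned 49160000, between LAMB2 and CCDC71. On the long arm, chr3:128880001-130120000 (1240 kb, 20 genes) spanned 129240000, between CNBP and COPG1, and chr3:137040001-139400000 (2360 kb, 20 genes) spanned 138040000, between CLDN18 and DZIP1L.

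Neighbouring protein-coding genes were then followed as pairs, each gene placed by the middle of its record. Of 908 pairs in 1 mock domain, 58 were set apart by an added boundary (6.39%, 4.97 to 8.17), against 2.16% over all chromosomes. Of 865 pairs in 1 PA+OA domain, 15 lay across a lost boundary (1.73%), against 2.74% over all chromosomes. Most pairs, 842 of 1059 (79.5%, 77 to 81.8), were in 1 domain in both lists, against 86.5% over all chromosomes. The middles of the pairs set apart were farther from each other, at a median of 126 kb (quartiles 76.8 and 312 kb), than those of the pairs kept in 1 domain, at 64 kb (28.4 and 136 kb). Parted pairs included SEC13 and ATP2B2 at 10320000, NUP210 and HDAC11 at 13480000, TGFBR2 and GADL1 at 30760000, DNAH1 and BAP1 at 52400000, TRA2B and ETV5 at 185960000, and TPRG1 and TP63 at 189240000.

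Seen gene by gene, 497 of 1060 protein-coding genes (46.9%) lay in a shorter domain in the PA+OA list than in the mock list, 225 (21.2%) in a longer one and 338 (31.9%) in one of equal length. The median domain around a gene was 880 kb in the PA+OA list, against 1200 kb in the mock list. For 250 genes the PA+OA domain was at most 50% as long as the mock domain, and for 79 it was at least 200%. More domains over nearly the same length are shorter on average, and the number of domains picked the chromosome. These counts are thus a description, given for this chromosome only and not set against the others.

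Gene bodies were crossed by 46 of the 84 added boundaries (54.8%, 44.1 to 65), against 46.5% of all bin edges, so the share lay within counting error of the chromosome. The 44 genes crossed were led in length by FHIT (1504 kb), ERC2 (960 kb), EPHA6, an ephrin receptor (947 kb), and ZBTB20, a repressor of alpha-fetoprotein in liver (833 kb). ULK4 (716 kb), KCNAB1, a subunit of potassium channels (421 kb), SYNPR, a protein of synaptic vesicles (416 kb), and IQSEC1, an exchange factor of ARF6 (386 kb), followed. FHIT was crossed by 3 added boundaries and ERC2 by 2, and the other 6 by 1 each.

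A list of 18 genes for secreted proteins, mostly plasma proteins made by hepatocytes, had 12 members in a divided mock domain and 5 in a kept one. It also holds genes known chiefly from other tissues. Among these, ADIPOQ, LTF and SERPINI1 are 3 of the 5 kept members, and SERPINI2 and FSTL1 are 2 of the 12 divided ones. Over all 1066 protein-coding genes of chromosome 3, 512 (48%) lay in a divided domain and 403 (37.8%) in a kept one, against 29.0% and 40.5% of genes over all chromosomes. Within 50 kb of an added boundary stood 4 of the 18, namely KNG1 at 10.9 kb, PROS1 at 36.5 kb, HRG at 47.9 kb and TF at 49.3 kb, against 77 of 1066 genes on the chromosome (7.22%) and 2.81% over all chromosomes. HRG, KNG1, AHSG and FETUB, the cystatin-type genes, are neighbours. AHSG, HRG and FETUB lay in a PA+OA domain of 760 kb and KNG1 in one of 80 kb, while a single mock domain of 1160 kb, chr3:185640001-186800000, held all 4. The boundary that parted KNG1 is one of those 80 kb from a mock boundary and was no longer added with a tolerance of 2 bins. HRG stands near that boundary too, so at 2 bins 2 of the 18 remain within 50 kb, PROS1 and TF. HRG, KNG1, AHSG and FETUB share 1 divided mock domain, and ITIH1, ITIH3 and ITIH4 of the same list share another. The 12 divided members are therefore not independent observations.

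TF, the iron carrier transferrin, was crossed by the added boundary at 133680000. Placed by its middle, it lay in a PA+OA domain of 3360 kb (chr3:133680001-137040000), against a mock domain of 2840 kb (chr3:132720001-135560000). CP, the copper ferroxidase ceruloplasmin, also lay in a longer PA+OA domain, of 5480 kb (chr3:143800001-149280000), against 200 kb in the mock list (chr3:149160001-149360000). Its middle lies 32.1 kb from the lost boundary at 149160000, which in the mock list parted it from HPS3. TFRC, the transferrin receptor, lay in a PA+OA domain of 120 kb (chr3:195960001-196080000), parted from TNK2 and from the mucin genes MUC4 and MUC20, against 520 kb in the mock list (chr3:195560001-196080000). ITIH1, ITIH3 and ITIH4, inter-alpha-trypsin inhibitor chains, stayed together in 560 kb of the PA+OA list (chr3:52720001-53280000), against 720 kb of the mock list (chr3:52560001-53280000).

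Genes of fatty acid handling numbered too few near added boundaries to be told from the chromosome. Of 9 listed genes of fatty acid oxidation and ketone bodies, 5 lay in kept domains, 4 in divided ones and 0 within 50 kb of an added boundary (upper limit 29.9%, Wilson), beside 37.8%, 48% and 7.22% of all genes of chromosome 3. EHHADH, the bifunctional enzyme of peroxisomal beta-oxidation, kept chr3:184840001-185640000 (800 kb) in both lists, and ACAA1, the peroxisomal thiolase, kept chr3:37840001-38520000 (680 kb). ACAD9, placed by its middle, lay in a PA+OA domain of 1240 kb, against 280 kb in the mock list, since the edge at 128880000 in the PA+OA list and at 128920000 in the mock list lies to either side of that middle. PPARG, the fatty acid receptor of adipogenesis, lay in 640 kb of the PA+OA list, against 680 kb of the mock list, with a common start at 11880001. Among 20 genes of lipid storage, lipolysis and phospholipids, 9 were in kept and 10 in divided domains. GPD1L alone stood within 50 kb of an added boundary (5%, 0.888 to 23.6), 17.7 kb from 32120000, which parted it from the oxysterol-binding protein gene OSBPL10. The lipid droplet gene CIDEC (600 kb) and ABHD5, the coactivator of adipose triglyceride lipase (2640 kb), had equal domains in both lists. ADIPOQ, the adipokine adiponectin, kept chr3:186800001-187200000.

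Liver enzymes and transporters had 13 of 26 members in divided (50%) and 9 in kept domains (34.6%), close to the 48% and 37.8% of all genes of chromosome 3, with 0 within 50 kb of an added boundary (upper limit 12.9%). SLC2A2 lay in 1440 kb of the PA+OA list, against 1840 kb of the mock list. The bile acid 12-alpha-hydroxylase CYP8B1 lay in a PA+OA domain of 1480 kb, against a mock domain of 680 kb, across the lost boundary at 42200000. Of 6 nuclear receptors, 4 were in kept domains (PPARG, THRB, RARB and NR1D2) and 2 in divided ones (NR2C2 and NR1I2).

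Among 25 tumour suppressors and cancer genes of the short arm, 7 were in kept and 7 in divided domains (28% each, 14.3 to 47.6). All genes of chromosome 3 had 37.8% in kept and 48% in divided domains. The other 11 of the 25 had a changed edge only, 9 of them neighbours in the GNAI2 stretch above. CTNNB1, beta-catenin, lay in a PA+OA domain of 1000 kb (chr3:40400001-41400000), against a mock domain of 2800 kb (chr3:39400001-42200000), and the boundary at 41400000 parted it from ULK4. VHL, the ubiquitin ligase subunit that marks hypoxia-inducible factors, lay in 200 kb (chr3:10120001-10320000) of the PA+OA list, against 1240 kb (chr3:10120001-11360000) of the mock list. BAP1, alone of the 25 within 50 kb of an added boundary (4%, 0.71 to 19.5, beside 7.22%), stood 5.51 kb from the one at 52400000. On the long arm, 13 of 23 cancer genes were in divided domains (56.5%, 36.8 to 74.4) and 9 in kept ones (39.1%, 22.2 to 59.2). ATR at 6.02 kb, SOX2 at 6.82 kb and TFG at 9.13 kb were the 3 within 50 kb of an added boundary (13%, 4.54 to 32.1, beside 7.22%). These shares lay within counting error of the chromosome. PIK3CA, the catalytic subunit of phosphoinositide 3-kinase, kept chr3:179000001-179360000.

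Of 13 chemokine receptor genes, 11 lay in kept domains and 0 within 50 kb of an added boundary, beside 37.8% and 7.22% of all genes of chromosome 3. Since 8 of the 11 share 1 domain, and 6 of the 7 purinergic and related genes below share another, these counts rest on a few domains and not on independent genes. CCR1, CCR2, CCR3, CCR9, CCRL2, XCR1 and CXCR6 were among those that shared chr3:45520001-46480000 (960 kb) in both lists. CCR8 and CX3CR1 shared 320 kb of the PA+OA list, against 360 kb of the mock list, and ACKR4 kept 320 kb. CCR4 lay 6 kb from the lost boundary at 32960000, and ACKR2 lay in 1480 kb of the PA+OA list, against 680 kb of the mock list. All 7 purinergic and related receptor genes were in kept domains, among them P2RY12, P2RY13, P2RY14, GPR171 and SUCNR1 in chr3:150600001-151920000 and P2RY1 in chr3:152560001-153000000. MUC13 kept 1000 kb, while MUC4 and MUC20 lay in 400 kb of the PA+OA list, against 520 kb of the mock list.

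Chromatin genes had 15 of 23 members in divided domains (65.2%, 44.9 to 81.2, beside 48% of all genes of chromosome 3) and 7 in kept ones (30.4%, beside 37.8%). There were 5 within 50 kb of an added boundary (21.7%, 9.66 to 41.9, beside 7.22%), with BAP1 and ACTR8 at 5.51 and 9.43 kb. HDAC11 stood at 13.4 kb, PHF7 at 17.1 kb and the genome organiser SATB1 at 44.5 kb. BAP1 and PHF7 stand near the same boundary, at 52400000, so these 5 genes rest on 4 boundaries. Of 25 genes of endoplasmic reticulum stress, autophagy and the proteasome, 13 were in divided (52%) and 10 in kept domains (40%), close to the chromosome. SELENOK at 8.14 kb, SEC13 at 8.98 kb, TFG at 9.13 kb and SEC22A at 42 kb were the 4 near an added boundary (16%, 6.4 to 34.7). ACTR8 and SELENOK flank the same boundary at 53880000. In cell cycle and DNA repair, 12 of 21 genes were in kept domains and 8 in divided ones, with ATR and TOPBP1 (48.9 kb) near an added boundary. In inflammation and immunity, 10 of 22 were in kept domains and 11 in divided ones, with CD80 at 22 kb, IL17RB at 23.8 kb and CD96 at 35.9 kb.

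A list of long genes, mostly of neuronal adhesion and the synapse, had 17 of 27 members in divided domains (63%, 44.2 to 78.5, beside 48% of all genes of chromosome 3). It also holds genes not of that kind, such as the hydrolase FHIT and SLC9A9, both counted among the 17. In kept domains lay 6 (22.2%, 10.6 to 40.8, beside 37.8%), and 0 had their middle within 50 kb of an added boundary. The middle of such a gene can lie far from its ends, and FHIT, ERC2, EPHA6 and SYNPR of this list were crossed by added boundaries. Transcription factors had 8 of 22 in kept and 8 in divided domains, and SOX2 and SATB1 near an added boundary. Claudins had 3 of 4 members in divided domains, collagens 3 of 4, and ribosomal proteins 5 of 9, with 0 near an added boundary in each. Over the 290 members of any list, 145 (50%) were in divided and 110 (37.9%) in kept domains, 22 (7.59%) stood within 50 kb of an added boundary and 5 (1.72%) within 50 kb of a lost one. For all genes of the chromosome the last share was 26 of 1066 (2.44%), and over all chromosomes it was 3.02%. The pooled lists were thus close to the chromosome as a whole.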

How the data were processed

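The authors' deposited file of each library gives domain positions (chromosome, start and end in base pairs, a unit with no score or depth). HiC-Pro, FastQC and build hg38 are named, per the submitters' processing notes. Not given in the sources used here are the domain caller, versions, matrix normalisation and contact numbers, each of which can shape such a list. Groups came from the sample titles. Domains of chromosome 3 left no gaps. The members, gene lists and alternatives were chosen with earlier results of these data known. Genes (1066 protein-coding on chromosome 3) and promoters came from RefSeq, GRCh38.p14. Named regions were the 8 mock domains with the most added boundaries, the 8 cleanly divided ones with the most genes, the 5 farthest added and lost boundaries, the 5 PA+OA domains over lost boundaries with the most genes and the 3 windows with the largest gain. Named genes were the 8 longest crossed, up to 3 list members nearest to an added boundary within 50 kb, 13 fixed loci and all members of gene clusters. Other genes are named as neighbours or examples, chosen after their values were seen. A few genes under this rule are not reported here. The code was checked on mock lists with planted boundaries, each more than 3 bins from any mock edge, which the same rule recovered. That check did not cover calls nearer to a mock edge, noise, depth or the domain caller, and so gives no support to single calls. Python 3.11.15, pandas 2.3.3, numpy 2.4.6 and statsmodels 0.14.6 were used. Tolerance, merging, short domains, arms, list ends, gene placement and window sizes were varied, and placement by transcription start and leaving out the gene-free stretch were chosen after seeing the data.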

Additional observations from a re-analysis of the deposited data

How the results depend on the processing

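Of 64 alternative values, 53 stayed within the counting interval of the reported value or within 1.5 times a count, and 11 moved beyond it. Some of the 53 had no room to move. Domains leave no gaps, so leaving out those of 0 length or under 200 kb kept 84 of 223 boundaries added and 25 of 164 lost. Leaving out chromosome ends or the gene-free stretch kept 58 of 908 gene pairs set apart. The tolerance for a shared boundary mattered most. With exact matches only, added boundaries were 45.3% of the PA+OA boundaries, lost boundaries 25.6% of the mock boundaries, and PA+OA domains over a lost boundary 16.5%. With 5 bins these were 27.8%, 9.15% and 6.06%, divided mock domains fell to 25.6% and gene pairs set apart to 4.63%. The share of added boundaries stayed above the share of lost ones at every tolerance tried. That order had almost no room to change, since the 223 PA+OA boundaries outnumber the 164 mock boundaries. It follows from the excess that picked the chromosome and gives no support. List members near an added boundary numbered 13 within 25 kb and 38 within 100 kb. Windows with more added than lost boundaries were 72.5% at 5 Mb and 100% at 20 Mb, against 90% at 10 Mb. The excess of PA+OA domains was 62 without domains of 0 length and 47 among domains of at least 200 kb, against 63 as reported. No paired analysis was possible because each group had 1 library and no test was made. With 1 library per group and an unknown depth, a difference in sequencing or domain calling between the libraries cannot be told apart from the treatment. The groups also differ in DMSO, named for mock cells only, and perhaps in BSA, named for PA+OA cells only. Neither can be told apart from the fatty acids.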

Other observations

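Of 80 microRNA hairpins on chromosome 3, 3 stood within 50 kb of an added boundary, beside 77 of 1066 protein-coding genes (7.22%). These 3 rest on 2 boundaries and are named as a description only. The clustered MIR191 and MIR425, 2 microRNAs widely expressed in epithelial tumours, lie 20.6 and 20.1 kb after the added boundary at 49000000, which parted P4HTM from WDR6. MIR12127 lies 39.6 kb before the boundary at 10320000 in SEC13.

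The ribosomal protein genes RPL14 and RPSA lay in different PA+OA domains of 1000 kb each, RPL14 with CTNNB1 and RPSA in the domain before it, against a single mock domain of 2800 kb for all 3 genes. PBRM1, a subunit of the PBAF remodelling complex, and BAP1, both tumour suppressors of the short arm, shared a PA+OA domain of 320 kb (chr3:52400001-52720000). In the mock list the boundary at 52560000 in PBRM1 kept them in different domains. Both changes are values of 1 library per group with no test.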
